A study of Mus musculus with 4 samples.

Results

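The genes around Usp25 on mouse chromosome 16 are described here, namely Lipi, Rbm11, Hspa13, Samsn1 and Nrip1 on the proximal side and Cxadr, Btg3, Chodl, Tmprss15 and Ncam2 on the distal side. They were taken by name, as the rows of the deposited table whose symbol is in this set, and all 10 were found among 24394 genes. They matter in a comparison of Usp25-/- with Usp25+/+ mice because a targeted gene is inherited together with the DNA beside it. RNA had been sequenced from 2 Usp25+/+ mice (numbers WT-139 and WT-140, below the controls) and 2 Usp25-/- mice (numbers KO-826 and KO-850, below the knockouts), and these 4 libraries are the whole series. Per the labels, all were C57BL/6 animals aged 8 weeks, and all drank 2.5% dextran sulfate sodium (DSS) for 5 days, followed by 2 days of plain water. DSS injures the lining of the gut. The controls carry that treatment too, and no untreated mice were analysed here. The labelled tissue is a short length of distal colon. How the Usp25 allele was made and bred is not stated in the labels.

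A gene knockout is usually made in embryonic stem cells and then bred onto another strain. Breeding replaces the rest of the genome but tends to keep a stretch of stem cell DNA on both sides of the altered gene, which is called the passenger region. Genes in such a stretch can differ between knockout and control mice through their own sequence variants, and a removed gene can also take regulatory DNA of a neighbour with it. Values of gene level hold no alleles, so the strain of origin of this region was not tested.

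The region is sparse in genes. In the mm9 build Usp25 lies on chromosome 16 from 77014314 to 77117024 on the plus strand. Its nearest flanking genes of the set were Nrip1, which ends 0.640 Mb before it, and Samsn1, which ends 0.992 Mb before it. Hspa13, Rbm11 and Lipi follow at 1.25, 1.41 and 1.43 Mb, and a predicted gene on the same strand, Gm17459, overlaps an exon of Lipi, so reads there may be split. On the other side Cxadr begins 1.185 Mb and Btg3 1.24 Mb after Usp25, Chodl and Tmprss15 at 1.81 and 1.84 Mb, and Ncam2 at 4.08 Mb. All are protein-coding. On the minus strand lie Lipi (75540759 to 75586301), Hspa13 (75755435 to 75767066), Samsn1 (75859038 to 76022515), Nrip1 (76287645 to 76374072) and Tmprss15 (78953253 to 79091342). On the plus strand lie Rbm11 (75593089 to 75603074), Chodl (78931193 to 78951978) and Ncam2 (81200942 to 81624530). Cxadr (78301741 to 78360030, plus strand) and Btg3 (78360105 to 78377437, minus strand) point at each other, with 75 bases between their annotated ends. No annotated exons of these 2 genes overlap. Whether the counting used strand is not stated in the labels, so reads running past the end of 1 of them could be assigned to the other, and this was not tested.

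Promoter sequences are shown for Samsn1, the member with the highest and most variable level, and for Btg3, of the pair of neighbours with higher values in both knockouts. RefSeq (GRCm38.p6) gave a start for 7 of the 10 genes, 9 starts in all. The 250 bases before each start matched mm9 chromosome 16 exactly and once, and positions are those of mm9. For Samsn1 the stretch chr16:75909534-75909561 on the minus strand lies inside the annotated gene, which on that strand begins at 76022515. This stretch ends 22 bases before the RefSeq start, and 22 of its 28 bases lie in an exon annotated for Samsn1. Its capitals mark the letters GAGGAAGT, the core bound by PU.1, a transcription factor of myeloid and B cells, once on each strand. For Btg3 the 250 bases shown are chr16:78377056-78377305 on the minus strand, inside the annotated gene but in no exon. Capitals mark the GC box GGGCGG on either strand. RefSeq gave another Btg3 start, with the bases chr16:78377427-78377676, which are not shown.
Samsn1: GAGGAAGTgtcacatcagacACTTCCTC
Btg3: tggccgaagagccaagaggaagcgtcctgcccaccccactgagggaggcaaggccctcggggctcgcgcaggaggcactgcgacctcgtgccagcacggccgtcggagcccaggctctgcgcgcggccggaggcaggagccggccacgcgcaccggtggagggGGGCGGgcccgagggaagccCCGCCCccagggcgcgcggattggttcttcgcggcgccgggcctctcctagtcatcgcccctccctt

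The 250 bases before the Samsn1 start were 38.4% G and C with 3 CpG, and those shown for Btg3 were 75.2% with 29 CpG. The medians were 52.4% and 6 over 32851 promoters of the same length. The bases before the other Btg3 start were nearer to these medians, at 57.2% with 7 CpG, and held no GC box. GAGGAAGT or its reverse complement was found before 1 of the 9 starts, that of Samsn1, and before 2.44% of all starts. At least 2 copies, as in Samsn1, were found before 0.0365% of all starts. The GC box was found before 4 of the 9 starts and before 32.7% of all, and the TATA box TATAAA before 0 of 9 and 12.4% of all. The motifs do not overlap each other in the sequences shown, but 2 GC boxes before a start of Nrip1 do. All motifs were chosen after the sequences had been read. A match describes letters only and shows no binding.

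The libraries need a caution before the values. Usp25 followed the labels, with 38.5 and 16.6 FPKM (fragments per kilobase of transcript, scaled to library size) in the controls and 2.65 and 1.71 FPKM in the knockouts. Mouse WT-139 stood apart, with a correlation across genes of 0.876 to 0.890 with the others. Of 12 markers of colonocytes and goblet cells 8 stayed below 1 FPKM in all 4 mice, and Zg16, Aqp8 and Cdx1 were listed at 0 in each. All 7 markers of alveolar and airway epithelium exceeded 1 FPKM in each mouse, with summed levels of 2202 and 4267 FPKM in the controls and 5152 and 5119 FPKM in the knockouts. The tissue is therefore called colon only as its label. Limma, a linear model with shared variance, called 0 of 12103 tested genes (0%) past the threshold of 0.05 on the p adjusted by Benjamini-Hochberg, and 400 genes had an unadjusted p under 0.05. An exact permutation test of 2 mice against 2 cannot go below p = 0.333. Nothing in the labels says whether mice came from separate litters, so p-values measure only the spread between these 4 animals.

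The 10 flanking genes fell into an expressed and a near-silent set. Samsn1, Hspa13, Cxadr, Btg3 and Nrip1 reached 1 FPKM in at least 2 mice and were tested. Lipi, Rbm11, Chodl, Tmprss15 and Ncam2 did not, and their highest value in any mouse was 0.856 FPKM. Among the expressed genes Samsn1 was the highest and Nrip1 the lowest in each of the 4 mice. Hspa13, Cxadr and Btg3 lay between them. From the highest, their order was Cxadr, Btg3 and Hspa13 in both knockouts. It differed between the controls, so their order over the 4 mice cannot be told from the spread.

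**Figure D1:**
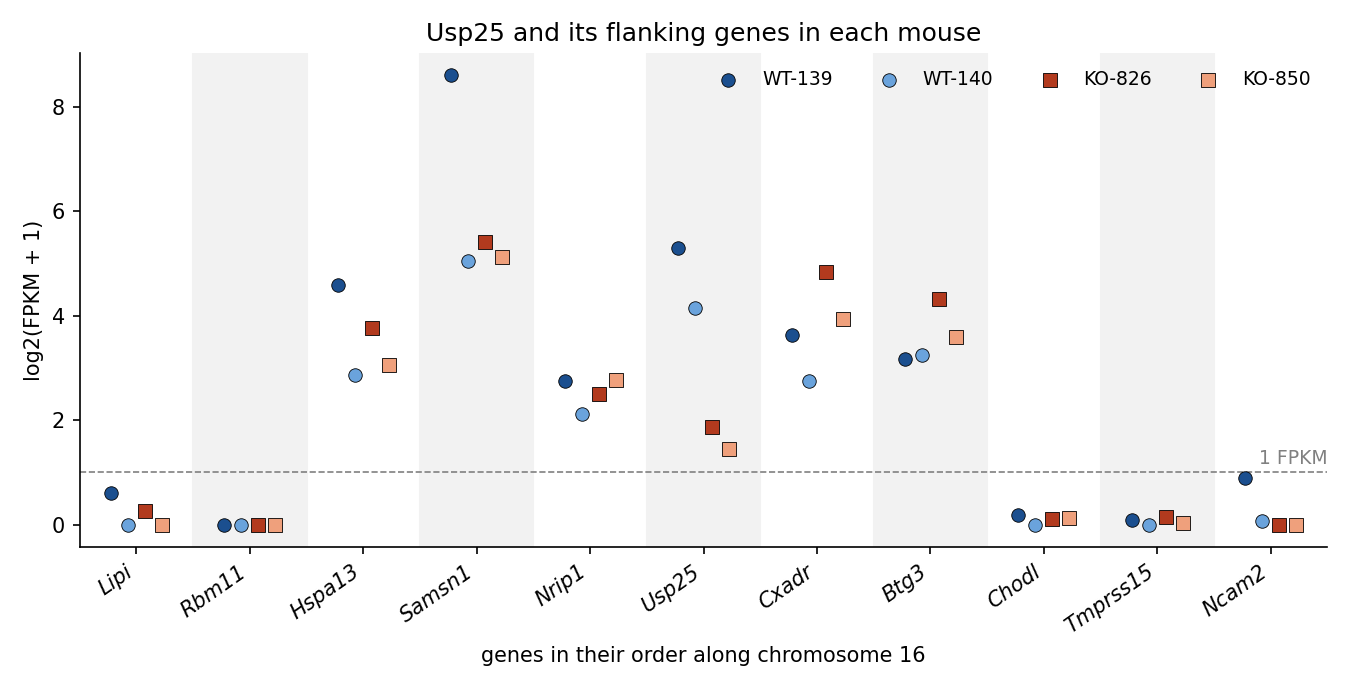
Levels of Usp25 and the 10 flanking genes as log2(FPKM + 1) (vertical axis), with genes in chromosomal order (horizontal axis) and 1 point for each mouse (circles Usp25+/+, squares Usp25-/-). Cxadr and Btg3 are higher in both knockouts than in both controls, Samsn1 reaches 386 FPKM in mouse WT-139 alone, and 5 genes stay below the dashed line at 1 FPKM.

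None of the 5 tested genes passed the test between the genotypes, which does not show that their levels were alike. The targeted gene Usp25 did not pass it either. Its log2 difference was -3.07, with an unadjusted p of 0.00104 and an adjusted p of 0.968 by limma. The genotype groups did not overlap for Cxadr and Btg3, both higher in the knockouts, and for none of the 5 lower. Among all tested genes, 19.0% did not overlap and were higher and 14.7% did not overlap and were lower, together 33.7%. The share among the flanking genes, 40.0% of 5, is near that background. An unadjusted p under 0.05 was found for 1 of the 5, Cxadr, and for 3.3% of all tested genes. The p of Cxadr was 0.0508 with a pseudocount of 5, 0.0525 in limma without a trend and 0.0589 with size factors, where the count was 0 of 5. By limma it was 0.0431 without a filter, 0.0464 when rescaled to a common total, 0.0473 with robust shrinkage and 0.0483 at a filter of 5 FPKM. With a pseudocount of 0.1 limma gave 0.05. The log2 difference of Cxadr fell from 1.208 with all mice to 0.763 without mouse WT-140 and 0.758 without mouse KO-826. By mean log2(FPKM + 1), 3 of the 5 were higher in the knockouts, with a median difference of 0.21, and 6484 of 12103 tested genes were higher, with a median of 0.03.

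Cxadr encodes the coxsackievirus and adenovirus receptor, an immunoglobulin protein of epithelial tight junctions. It stood at 11.4 and 5.69 FPKM in the controls and at 27.7 and 14.4 FPKM in the knockouts. Both knockouts lay above both controls, and mouse KO-826 was the highest. The means were 8.55 ± 4.04 and 21.1 ± 9.43 FPKM (SD, n = 2), a ratio of 2.47. The log2 difference was 1.21 ± 0.47 (SE), with a 95% interval from 0.0039 to 2.41, and limma gave an unadjusted p of 0.0495 and an adjusted p of 0.968. By unadjusted p, 3.26% of the tested genes ranked ahead of it. The difference stayed positive with each mouse left out, from 0.76 without mouse KO-826 to 1.66 without mouse KO-850, and was 1.65 without mouse WT-139 and 0.76 without mouse WT-140.

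Btg3 belongs to the BTG/TOB proteins, which restrain proliferation and bind the CCR4-NOT complex that shortens poly(A) tails. Its level was 8.06 and 8.55 FPKM in the controls, against 19.0 and 11.02 FPKM in the knockouts. The controls were close together, and mouse KO-826 was again the highest. The means were 8.31 ± 0.347 and 15.0 ± 5.61 FPKM (SD, n = 2), and the log2 difference was 0.73 ± 0.35 (SE), with an unadjusted p of 0.0888 and an adjusted p of 0.968 by limma. With single mice left out the difference ranged from 0.37 without mouse KO-826 to 1.10 without mouse KO-850. The other members of the family did not share one direction. Of 6 tested genes for BTG/TOB proteins and CCR4-NOT deadenylases, 3 were higher and 3 lower by mean log2, with a median of -0.02. Tob1, another antiproliferative member, stood at 51.1 and 51.4 against 81.9 and 65.1 FPKM. Btg2 stood at 220.5 and 95.1 against 86.9 and 90.8 FPKM, and the highest value of Btg1, 191 FPKM, was also in mouse WT-139.

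Markers shared by most epithelia had the same order of groups as Cxadr and Btg3, and those of lung epithelium were mixed. The 4 shared markers, Epcam, Cdh1, Krt8 and Krt18, did not overlap between the groups, and all were higher in the knockouts, with a median log2 difference of 1.36. Their summed level was 561 and 540 FPKM in the controls and 2364 and 936 FPKM in the knockouts, with the highest sum in mouse KO-826. Of the 7 alveolar and airway markers, 5 were higher and 2 lower by mean log2, with a median of 0.23, and 2 did not overlap, both higher. The 2 lower were Scgb1a1, a club cell protein, at 741 and 462 against 219 and 567 FPKM, and Foxj1, a factor of ciliated cells, at 2.72 and 5.34 against 1.04 and 3.50 FPKM. The colonocyte and goblet cell list summed to 12.9 and 13.1 FPKM against 126 and 36.8 FPKM, nearly all of it from its 2 tested genes, Lgals4 (70.5 FPKM in mouse KO-826) and Krt20 (52.4 FPKM there), which were higher without overlap. Among the untested genes of that list, Vil1 was higher without overlap, at 0.161 and 0.101 against 1.46 and 0.603 FPKM. The mucin gene Muc2 was lower without overlap, at 0.193 and 0.0550 against 0.0436 FPKM and a listed 0. Both were too low to be tested. Per 1000 FPKM of the 4 shared markers, Cxadr stood at 20.3 and 10.5 FPKM in the controls and at 11.7 and 15.4 FPKM in the knockouts, so that the groups overlapped. On the same scale Btg3 stood at 14.4 and 15.8 FPKM against 8.02 and 11.8 FPKM, lower in both knockouts. This scale was chosen after the values had been seen, and it mainly follows Krt8 and Krt18, at 1067 and 1030 of the 2364 FPKM in mouse KO-826. The log2 differences were 1.35 for Krt8, 1.59 for Krt18, 1.38 for Epcam and 0.71 for Cdh1. Those of Cxadr and Btg3 were 1.21 and 0.73. The order of groups depended on the marker. Relative to Cdh1 alone, at 36.82 and 24.75 against 62.34 and 40.33 FPKM, Cxadr stayed higher in both knockouts. Relative to Epcam, Krt8 or Krt18 alone, the groups overlapped for Cxadr. Btg3 was lower in both knockouts relative to Krt8 or Krt18 alone and overlapped relative to Epcam or Cdh1. In bulk tissue fewer cells of a type and less RNA per cell cannot be told apart, and the part of epithelial content in the Cxadr and Btg3 values was not tested further.

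Other junction proteins related to Cxadr gave a mixed picture. Of 10 tested genes for junctional immunoglobulin proteins and their partners, 7 were higher and 3 lower by mean log2, with a median of 0.36. Igsf5, an epithelial junction protein encoded 19.7 Mb from Usp25 on the same chromosome, stood at 7.91 and 8.02 FPKM in the controls and at 24.0 and 16.5 FPKM in the knockouts, with a log2 difference of 1.22 ± 0.31 (SE). F11r, which encodes JAM-A, overlapped, at 30.5 and 83.9 against 80.8 and 72.1 FPKM. Esam, a junction protein of endothelium, overlapped too, at 11.6 and 36.1 against 21.3 and 40.6 FPKM. Jam2, also on chromosome 16, stood at 5.96 and 10.4 against 8.82 and 7.66 FPKM.

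Samsn1 encodes an adaptor with SH3 and SAM domains that dampens the activation of B cells and is made in blood cells. Its level was 386 FPKM in mouse WT-139 and 32.2 FPKM in mouse WT-140, against 41.6 and 34.0 FPKM in the knockouts. A single control was about an order of magnitude above the rest, and the other control was the lowest of the 4, so the groups overlapped. The log2 difference was -1.55 ± 1.14 (SE), with an interval from -4.43 to 1.33 and an adjusted p of 0.968 by limma. Without mouse WT-139 it was 0.22. Without mouse WT-140 limma put it at -3.33 (adjusted p = 0.0300), in a fit that called 163 of 11793 genes, or 1.38%. That fit sets mouse WT-139 alone against the knockouts and assumes that it varies like them.

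Neutrophil markers were high in the same mouse. The 9 markers in the table had a summed level of 41410 FPKM in mouse WT-139, 761 FPKM in mouse WT-140, and 2151 and 1260 FPKM in the knockouts. S100a8, a calcium-binding protein of neutrophils, made up 19440 FPKM of the sum in mouse WT-139, and S100a9 made up 18030 FPKM. The sum therefore mainly follows S100a8 and S100a9. Per 1000 FPKM of neutrophil markers, Samsn1 stood at 9.33 and 42.3 FPKM in the controls and at 19.3 and 27.0 FPKM in the knockouts, with mouse WT-139 the lowest. This order of mice depended on the marker. Mouse WT-139 was the lowest relative to S100a8, S100a9, Retnlg, Ngp or Mmp9 alone, but not relative to Il1r2, Csf3r, Cxcr2 or Trem1. Relative to Trem1, at 365.8 and 40.53 against 67.21 and 38.56 FPKM, mouse WT-139 was the highest. The part of neutrophil content in the Samsn1 values was not tested further. The related adaptors Sash3 and Sash1 did not peak in mouse WT-139. Sash3, a lymphocyte adaptor, stood at 21.5 and 31.3 against 16.4 and 30.9 FPKM, and Sash1 at 8.20 and 9.23 against 7.61 and 7.44 FPKM.

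**Figure D2:**
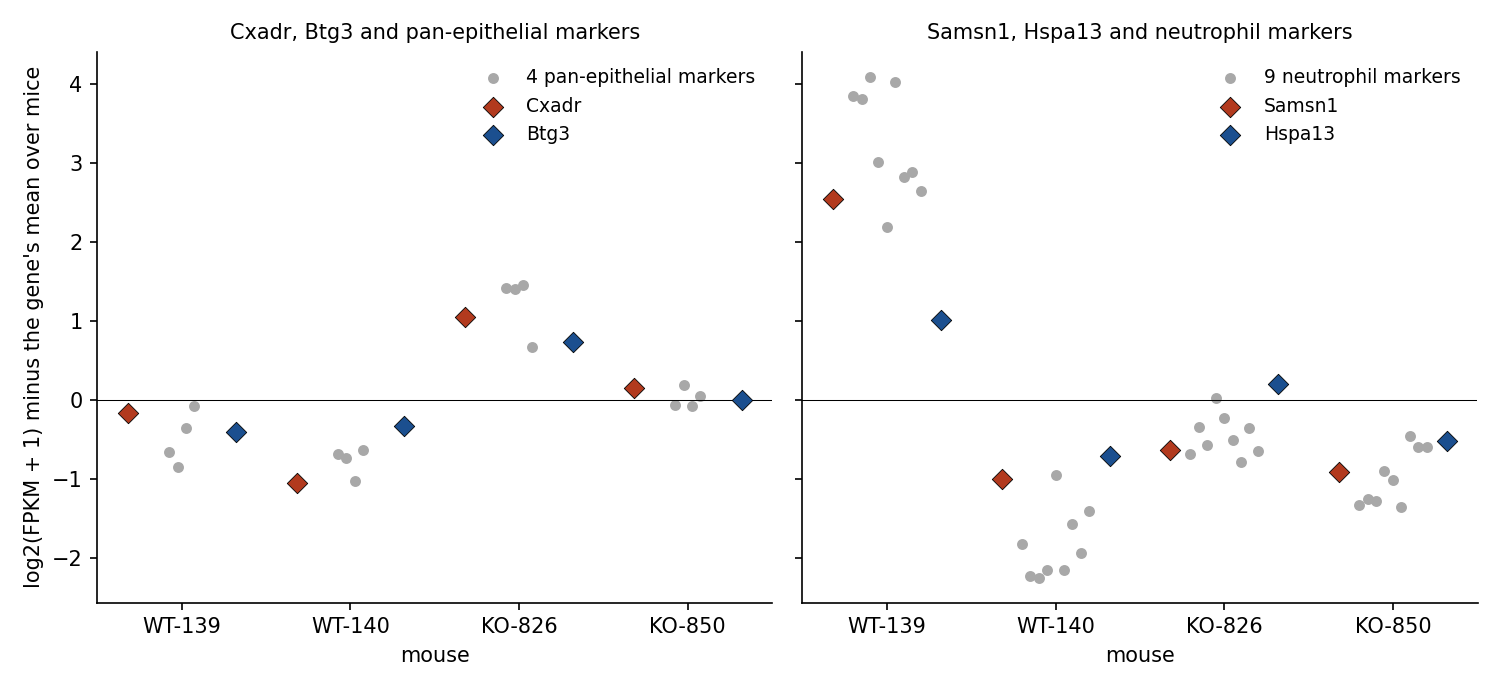
Each gene's log2(FPKM + 1) minus its own mean over the 4 mice (vertical axis) in each mouse (horizontal axis), with diamonds for flanking genes and grey points for single marker genes. At the left, Cxadr, Btg3 and the 4 pan-epithelial markers are highest in mouse KO-826, and at the right Samsn1, Hspa13 and the 9 neutrophil markers are highest in mouse WT-139.

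Hspa13 encodes a microsomal member of the HSP70 chaperones. It stood at 23.1 and 6.31 FPKM in the controls and at 12.7 and 7.34 FPKM in the knockouts. The highest and the lowest value were both in controls. The log2 difference was -0.32 ± 0.64 (SE), with an interval from -1.93 to 1.30. It turned to 0.55 without mouse WT-139 and was -1.18 without mouse WT-140, and it turned to 0.04 without mouse KO-850, so its sign rested on single mice. Per 1000 FPKM of the neutrophil markers above, Hspa13 stood at 0.558 and 8.30 FPKM against 5.88 and 5.82 FPKM. That scale mainly follows S100a8 and S100a9. Among 13 HSP70 chaperones tested, 8 were higher and 5 lower by mean log2, with a median of 0.11. Hspa8, the constitutive cytosolic member, stood at 801 and 796 FPKM against 1091 and 859.7 FPKM. Hspa5, the chaperone BiP of the endoplasmic reticulum, overlapped, at 422 and 343 against 444 and 376 FPKM.

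Nrip1, also known as RIP140, is a corepressor that binds nuclear receptors and is the nearest coding neighbour of Usp25 in the set. Its level varied least of the 5 tested members, at 5.70 and 3.34 FPKM in the controls and at 4.69 and 5.85 FPKM in the knockouts. The groups overlapped, and the log2 difference was 0.21 ± 0.35 (SE), with an interval from -0.67 to 1.09. Without mouse WT-140 it was -0.10. Of the nuclear receptors and corepressors it is known to bind, 7 of 10 were tested, 5 of them higher and 2 lower by mean log2, with a median of 0.18. Pparg, a receptor of lipid metabolism also made in alveolar macrophages, stood at 27.4 and 54.3 against 80.4 and 66.6 FPKM. The corepressor gene Ctbp1 overlapped, at 34.4 and 55.8 against 53.0 and 53.0 FPKM. Rxra, the shared partner of many nuclear receptors, stood at 13.3 and 31.1 against 14.2 and 23.7 FPKM.

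**Figure D3:**
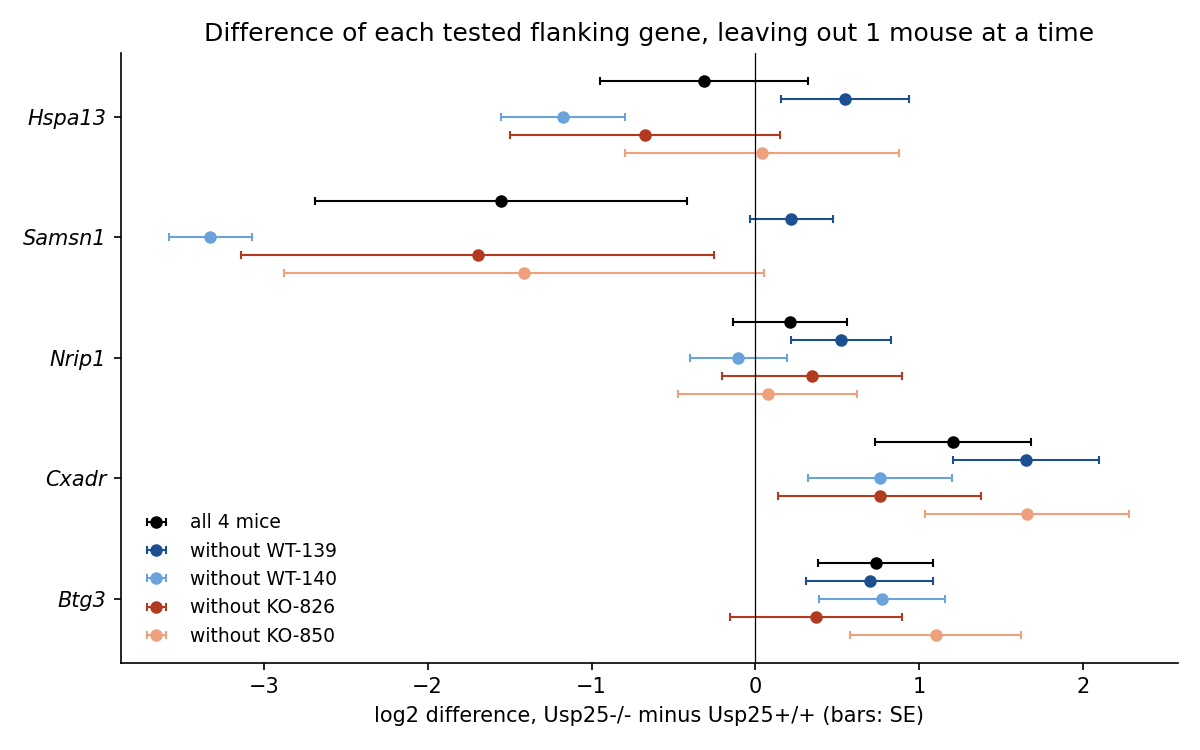
Log2 difference of each tested flanking gene between Usp25-/- and Usp25+/+ mice (horizontal axis, bars are SE) with all 4 mice and without each mouse in turn. Cxadr and Btg3 stay above 0 in each fit, and Samsn1 moves from -3.33 without mouse WT-140 to 0.22 without mouse WT-139.

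The near-silent genes gave too little signal for a comparison. Rbm11, an RNA-binding splicing factor of brain and testis, was listed at 0 in all 4 mice. Tmprss15, the enteropeptidase that activates trypsinogen in the duodenum, stood at 0.0702 FPKM and at 0 in the controls and at 0.105 and 0.0199 FPKM in the knockouts. Chodl, a C-type lectin-like membrane protein, was at most 0.133 FPKM and was listed at 0 in mouse WT-140. Lipi, a phosphatidic acid-selective phospholipase, measured 0.528 FPKM in mouse WT-139, 0.203 FPKM in mouse KO-826 and was listed at 0 in the other two. Ncam2, an adhesion molecule of olfactory neurons, was at 0.856 and 0.0430 FPKM in the controls and listed at 0 in both knockouts, so the groups did not overlap, but it was too low to be tested. Lipi, Chodl and Ncam2 each had their highest value in mouse WT-139, the library with the fewest genes listed at 0 (3862, against 7175 to 8813 in the others). At an unknown depth, a listed 0 does not show that a gene was silent.

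Some relatives of these low genes were expressed. Membrane serine proteases other than Tmprss15 did not overlap between the groups in 5 of 5 cases, all higher in the knockouts (19.0% of all tested genes were so), with a median log2 difference of 0.90 and none past the adjusted threshold. Tmprss2, an airway and gut epithelial protease encoded 20.8 Mb from Usp25 on chromosome 16, stood at 4.57 and 5.56 FPKM in the controls and at 24.3 and 12.1 FPKM in the knockouts. St14, which encodes matriptase, stood at 9.06 and 11.1 against 17.1 and 13.7 FPKM. These epithelial genes had the same order of groups as the pan-epithelial markers above. Rbm7, which resembles Rbm11 and serves in nuclear RNA decay, stood at 71.8 and 61.3 against 46.8 and 47.0 FPKM, and its partner Zcchc8 at 6.45 and 7.53 against 5.35 and 5.37 FPKM. Liph, a lipase close to Lipi, stood at 5.09 and 4.84 against 7.08 and 5.47 FPKM. Lipg, an endothelial lipase, reached 74.4 FPKM in mouse WT-139 and was below 1 FPKM in the other 3. Lipc, the hepatic lipase, stayed below 1 FPKM in all 4 mice. Ncam1 reached 1.19 FPKM in mouse WT-139 only, and Layn, related to Chodl, stood at 1.10 and 1.82 against 1.30 and 0.768 FPKM.

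The wider neighbourhood held few other measured genes. The annotation placed 16 genes of the table within 5 Mb of either end of Usp25, the 10 flanking genes and 6 more. Of these 6 only D16Ertd472e was tested. It lies 1.43 Mb beyond Usp25, from 78544257 to 78576902 on the minus strand, and stood at 11 and 4.04 FPKM in the controls and at 10.3 and 5.99 FPKM in the knockouts, with a log2 difference of 0.19 ± 0.52 (SE) that turned to -0.43 without mouse WT-140 and to -0.15 without mouse KO-826. The axon guidance receptor genes Robo1 and Robo2 did not exceed 0.494 FPKM. The microRNA genes Mirlet7c-1 and Mir125b-2 were listed at 0 in each mouse, and Mir99a stood at 2.77 FPKM in mouse KO-826, at 0.957 FPKM in mouse WT-139 and was listed at 0 in the others. These values come from polyadenylated RNA and need not reflect mature microRNAs.

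Differences near Usp25 were set beside those of the rest of the chromosome. Within 5 Mb, 4 of 6 tested genes were higher by mean log2, with a median of 0.20, and 2 of 6 (33.3%) did not overlap. The sign of that median rested on single mice, at -0.27 without mouse WT-140 and 0.62 without mouse WT-139. Farther away on chromosome 16, 178 of 346 tested genes were higher, with a median of 0.02, and 31.2% did not overlap. Tmprss2 and Igsf5 are among them, with the smallest unadjusted p on the chromosome after Usp25, 0.0103 and 0.0104 by limma. Within 10 Mb, 6 of 14 were higher, with a median of -0.06, and 28.6% did not overlap. Shares of separated genes thus lay near the 33.7% of all tested genes in each window. The genes added by the wider window held 2 that did not overlap and were lower. App, the amyloid precursor gene, stood at 351.5 and 375 FPKM in the controls and at 238 and 269 FPKM in the knockouts, and Cyyr1 at 3.31 and 2.84 against 0.928 and 2.37 FPKM. Both were named after their values had been seen.

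**Figure D4:**
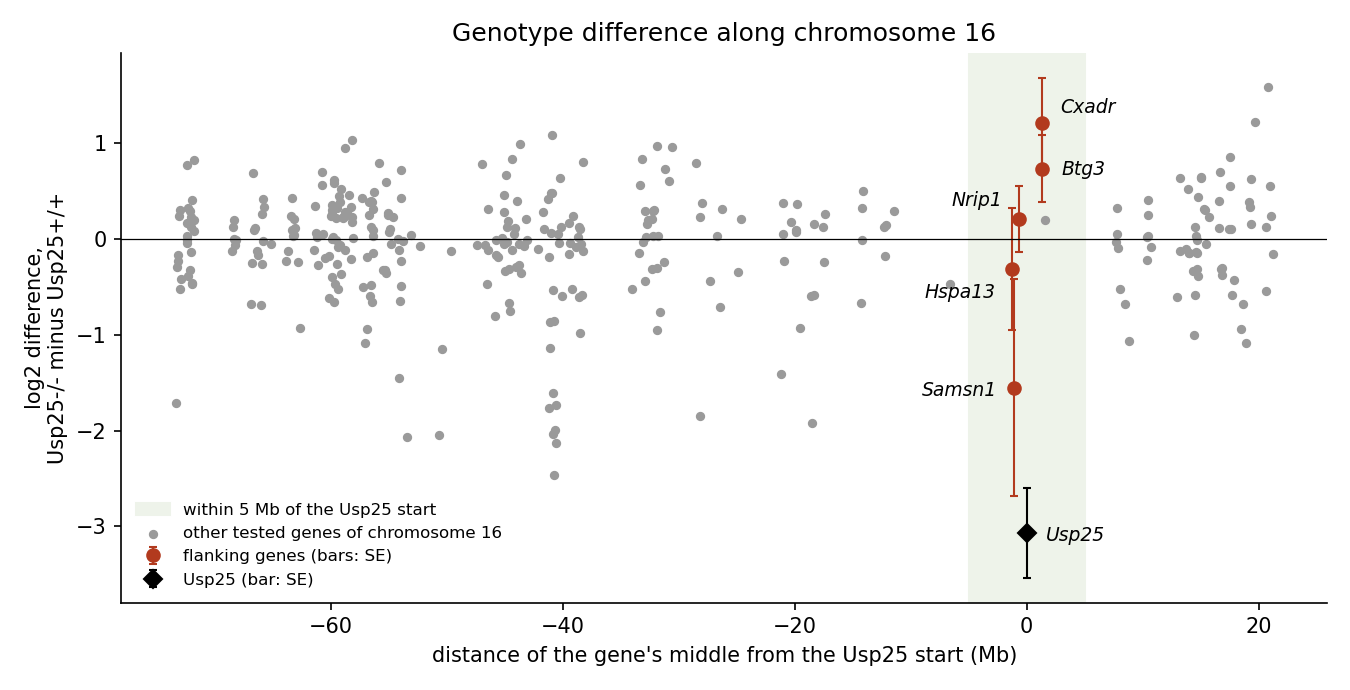
Log2 difference between Usp25-/- and Usp25+/+ mice (vertical axis) of each tested gene of chromosome 16 against the distance of its middle from the Usp25 start in Mb (horizontal axis). Flanking genes lie on both sides of 0 from -1.55 for Samsn1 to 1.21 for Cxadr, in a stretch with few tested genes, and Usp25 is the lowest point at -3.07.

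Genes whose profile over the 4 mice was closest to that of a flanking gene were looked up for Samsn1 and Cxadr, the tested members whose log2(FPKM + 1) ranged over more than 2 units. Likeness was the Euclidean distance between log2 profiles centred on their own means, over 4 mice. Closest to Samsn1 was Thbs1, which encodes thrombospondin, at 479 and 37.4 FPKM in the controls and at 52.6 and 46.2 FPKM in the knockouts, a distance of 0.156. Adgrg3 and Isg15 followed at distances of 0.213 and 0.282. Closest to Cxadr were Rhpn2, Slc45a3 and Rdh10, at distances of 0.220, 0.229 and 0.230. Rhpn2 stood at 4.92 and 2.94 FPKM in the controls and at 14.8 and 7.16 FPKM in the knockouts. None of those placed on the mm9 map lies on chromosome 16, and Adgrg3 was not placed.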

How the data were processed

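Per the labels, polyadenylated RNA from 4 mice was sequenced on Illumina instruments. The authors deposited 1 table of FPKM values, with 1 column for each mouse. Bowtie 0.12.2 and the build mm9 are named in the submitters' processing notes. The quantifier, annotation, strand use and filters are not given in the sources used. Depth is unknown: the most frequent product of FPKM and length over 2490 genes with 1 exon gave only rough relative depths of 0.742 to 1.25.

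Spreadsheet dates (27 of 24421 symbols) were removed. Genes at 1 FPKM or more in at least 2 mice (12103) were analysed as log2(FPKM + 1), which understates changes of low genes, with limma 3.58.1 in R 4.3.3 (mean-variance trend, two-sided, Benjamini-Hochberg adjustment over all tested genes, threshold 0.05). Labels record no pairing, so no block was used. The fit was tested on simulated data, and depth was not tested as a limit on calls. Positions come from Gencode for mm9, in which 20628 symbols were placed once. Tables and plots used Python 3.11.15, pandas 2.3.3 and matplotlib 3.10.9.

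The flanking genes, marker lists and related genes were chosen with earlier results of these data known. Named are the flanking genes, tested genes within 5 Mb, up to 4 related genes per group by mean level, and the 3 closest profiles.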

Additional observations from a re-analysis of the deposited data

How the results depend on the processing

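Cxadr and Btg3 kept a positive difference, short of the adjusted threshold, under all 12 alternatives (2 pseudocounts, 2 filters, 2 scalings, 2 variance models and each mouse left out), and no setting other than leaving out a mouse changed the sign or the adjusted call of any tested flanking gene. Leaving out 1 mouse at a time gave log2 differences of -1.18 to 0.545 for Hspa13 (0.545 without mouse WT-139, 0.041 without mouse KO-850), -3.33 to 0.220 for Samsn1 (0.220 without mouse WT-139) and -0.103 to 0.524 for Nrip1 (-0.103 without mouse WT-140). D16Ertd472e ranged from -0.431 without mouse WT-140 to 0.820 without mouse WT-139, and was -0.154 without mouse KO-826. The median over the 5 flanking genes ranged from -0.103 without mouse WT-140 to 0.545 without mouse WT-139, and that within 5 Mb from -0.267 to 0.621 without the same mice. Without a filter both were 0.028. Limma called 0 to 163 of all genes in these fits, the 163 without mouse WT-140. Genes with an unadjusted p under 0.05 numbered 2631 without mouse WT-140, 656 without mouse WT-139, 111 without mouse KO-826 and 249 at a filter of 5 FPKM. Of the genes within 5 Mb, 2 to 6 of 6 were higher with a mouse left out, and 7 of 13 without a filter, a setting that tests more genes. The scalings moved the median of all genes by less than 0.1 (log2). Why single mice decided these signs was not tested. No paired analysis was possible because the labels give the groups no shared numbers.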
